A study of Mus musculus with 102 samples.

Results

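Wild-type mouse embryonic stem cells that had received a mock transduction were compared between day 8 and day 29, with 3 replicates at each day. Members were all CpGs with a methylation level in each of these 6 samples, which was the case for 398 of the 405 CpGs measured by amplicon bisulfite sequencing and for 64 of 65 amplicons. The 7 CpGs left out all lay in the amplicon FMR9. The cells were of the C57BL6/J strain and labelled Wild-type TET and Dnmt3a/3b intact. They were grown from a homozygous clone in which both Dnmt3 genes carry loxP sites, so the wild-type cells of either day hold floxed but functional Dnmt3a and Dnmt3b. Mock cells were exposed to the dialysis buffer of the Cre protein and moved to feeder-free plates after transduction. Beside them stand 3 non-transduced wild-type samples at day 0, wild-type cells treated with Cre, and mock-treated TTKO cells. The TTKO line is a clone made from the same floxed line, in which Tet1, Tet2 and Tet3 were disrupted. The whole series holds 102 samples.

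DNA methylation in mammals sits mostly on CpG dinucleotides. DNMT3A and DNMT3B set new methyl groups, DNMT1 copies the pattern after replication, and the TET enzymes oxidize methylcytosine, which leads to its loss. Distal regulatory elements bound by transcription factors typically have intermediate to low methylation and are known as low-methylated regions (LMRs). CpG-rich promoters are typically unmethylated regions (UMRs), and most of the genome is fully methylated (FMRs). The region list behind the amplicons divides LMRs into constitutive, ES-specific and NP-specific ones, with separate classes for constitutive LMRs labelled CTCF, an insulator protein, and REST, a repressor of neuronal genes. A single amplicon each carries the labels Methylated_UMR and metIsland.

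The sequences of 6 amplicons are shown because they span the range of outcomes, from the largest decline to almost none. They were read from the plus strand of mm9 (NCBIM37) and run from 20 bases before the first to 20 bases after the last tested CpG, with the tested CpGs in capitals. ES-specific_LMR33 (chr3:9601400-9601656) lies in an intron of Zfp704, which encodes a zinc finger protein, and holds 10 tested CpGs. LMR16 (chr10:94717122-94717402) lies in an intron of Cradd, which encodes an adaptor protein of apoptosis signaling, and holds 6. Constitutive_LMR-REST75 (chr5:150291045-150291287) and Constitutive_LMR-CTCF48 (chr10:3270015-3270213) are intergenic with 6 tested CpGs each. FMR4 (chr6:113705552-113705681) lies in an intron of Atp2b2, which encodes a plasma membrane calcium pump, and holds 4. UMR11 (chr14:20901899-20902089) lies in an intron of 1810063B07Rik, 326 bases from an annotated start at its nearest tested CpG, and holds 12.
ES-specific_LMR33: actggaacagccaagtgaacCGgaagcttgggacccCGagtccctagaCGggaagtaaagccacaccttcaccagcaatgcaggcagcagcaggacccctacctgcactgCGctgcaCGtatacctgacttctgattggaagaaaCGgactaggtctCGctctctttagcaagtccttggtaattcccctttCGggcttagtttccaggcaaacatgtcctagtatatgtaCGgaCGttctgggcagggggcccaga
LMR16: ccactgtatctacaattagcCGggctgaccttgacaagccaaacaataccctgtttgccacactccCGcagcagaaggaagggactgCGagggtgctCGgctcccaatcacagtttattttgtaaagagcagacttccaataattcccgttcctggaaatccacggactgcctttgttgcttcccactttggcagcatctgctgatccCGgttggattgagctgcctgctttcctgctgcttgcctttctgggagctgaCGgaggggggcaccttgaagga
Constitutive_LMR-REST75: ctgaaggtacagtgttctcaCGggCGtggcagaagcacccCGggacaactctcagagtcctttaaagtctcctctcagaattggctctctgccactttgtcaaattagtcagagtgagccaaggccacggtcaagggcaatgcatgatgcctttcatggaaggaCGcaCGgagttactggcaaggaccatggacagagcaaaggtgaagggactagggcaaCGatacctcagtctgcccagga
Constitutive_LMR-CTCF48: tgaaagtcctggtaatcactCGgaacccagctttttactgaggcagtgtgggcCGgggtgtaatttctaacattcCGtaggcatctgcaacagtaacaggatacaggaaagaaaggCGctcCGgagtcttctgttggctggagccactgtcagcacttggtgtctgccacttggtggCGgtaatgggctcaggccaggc
FMR4: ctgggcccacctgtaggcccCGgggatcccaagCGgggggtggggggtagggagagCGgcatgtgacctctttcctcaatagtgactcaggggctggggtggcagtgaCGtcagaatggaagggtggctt
UMR11: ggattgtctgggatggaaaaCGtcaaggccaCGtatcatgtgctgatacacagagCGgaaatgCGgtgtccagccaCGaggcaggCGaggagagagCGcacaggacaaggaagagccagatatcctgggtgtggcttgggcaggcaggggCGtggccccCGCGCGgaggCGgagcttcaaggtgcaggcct

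In windows of 200 bases around the middle of the 88 listed regions, the REST half-site GGACAGC, searched on both strands, was found in 17 of 28 regions labelled REST (60.7%) and in 19 of all 88 (21.6%). The other half-site, TTCAGCACC, was found in 5 of 28 (17.9%) and in 5 of all 88 (5.68%). These matches describe the letters in the windows and carry no measurement of binding.

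Methylation levels were lower at day 29 than at day 8 across most regulatory regions. The mean level over the 398 CpGs was 36.6%, 38.3% and 35.4% in the 3 replicates of day 8 and 27.4%, 28.5% and 28.5% in those of day 29. The groups did not overlap, and the means of 36.7% ± 1.45 and 28.1% ± 0.613 (SD, n = 3 each) differed by -8.63 percentage points. The median difference of single CpGs was smaller, -5.58 points. An exact permutation test over samples, two-sided, gave p = 0.1, which is the smallest value that 3 against 3 samples allow.

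For single CpGs, a quasi-binomial model of methylated and unmethylated reads was used, with an adjusted p below 0.05 called a change. With this model 202 of 398 CpGs fell (50.8% of all tested), 5 rose (1.26%) and 191 were not called. The number that rose was 1 to 4 when a sample was left out. With the spread taken from all wild-type mock samples, 120 CpGs fell and 1 rose. At 248 CpGs (62.3%) each replicate of day 29 lay below each replicate of day 8, and at 7 CpGs (1.76%) each lay above. CpGs of the same amplicon share reads, so the model was also run on reads summed per amplicon. Of 64 amplicons, 52 were called (81.2%), of which 49 fell (76.6%) and 3 rose (4.69%). None of the rises was called when the spread came from all wild-type mock samples (44 lower, 0 higher), and 1 was without replicate 2 of day 8 or replicate 3 of day 29. At 53 amplicons (82.8%) the replicates of day 29 all lay below those of day 8. Coverage was deep, with a median of 8773 reads per CpG and sample at day 8 and 5885 at day 29. Replicates of the same day correlated across CpGs with r between 0.985 and 0.992.

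Over the 341 CpGs with a level in all 21 non-transduced and mock samples, non-transduced cells averaged 26.4% ± 0.396 (SD, n = 3, as for the values that follow). Day 4 averaged 36.7% ± 2.99 and day 8 averaged 37.0% ± 1.42. The next samples gave 32.9% ± 0.122 (day 10), 29.9% ± 0.278 (day 13), 28.6% ± 0.783 (day 17) and 28.3% ± 0.559 (day 29). In this overall mean, all 3 replicates of day 10 lay below all 3 of day 8, and the replicates of day 17 and day 29 overlapped. In ES-specific LMRs, 47.4% ± 4.08 (day 8) was followed by 34.6% ± 1.49 (day 10) and 29.7% ± 0.199 (day 13), and day 29 gave 30.1% ± 1.60. Constitutive LMRs without a CTCF or REST label, over 45 CpGs, were at 45.8% ± 1.31 on day 8 and 41.3% ± 1.28 on day 10. They were at 34.2% ± 1.01 on day 13 and reached 27.8% ± 1.01 by day 29. Highly methylated types differed less between day 8 and day 10, with 91.9% ± 0.723 and 91.9% ± 0.331 in NP-specific LMRs and 84.2% ± 1.11 and 83.4% ± 2.27 in FMRs. No test was run between these courses.

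**Figure D1:**
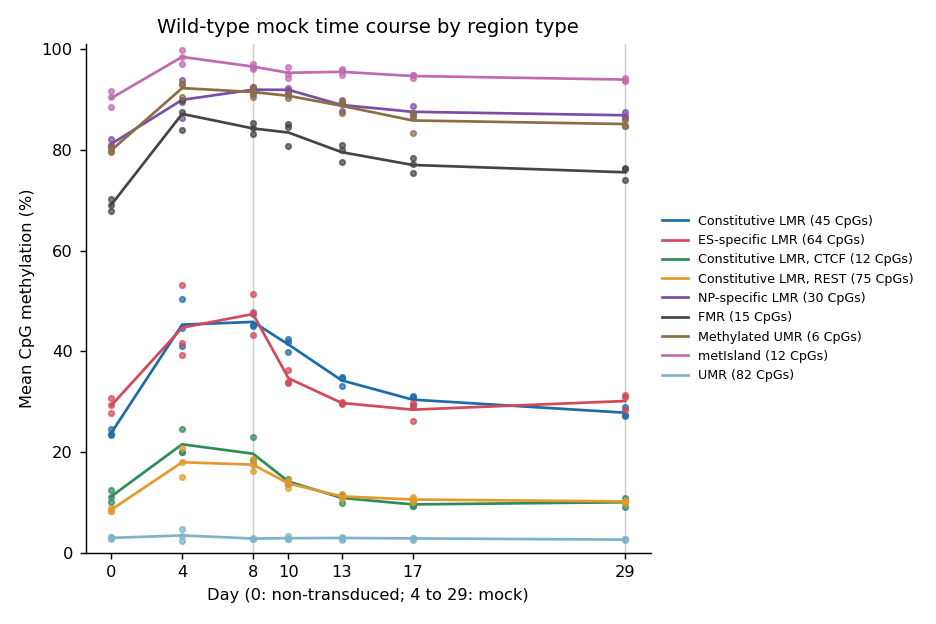
Mean CpG methylation in percent against day for each region type, over CpGs with a level in all 21 samples (points are replicates, lines join the means). Levels at day 4 and day 8 stand above day 0 in every type but UMRs, and constitutive and ES-specific LMRs decline the most in percentage points between day 8 and day 29.

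ES-specific LMRs and constitutive LMRs showed the largest differences in percentage points, and their order depended on the CpGs and samples used. The mean of ES-specific LMRs over 64 CpGs was 47.8%, 51.3% and 43.1% at day 8 and 28.3%, 30.9% and 31.2% at day 29, a difference of -17.3 points. Of these CpGs 58 fell (90.6%) and none rose, and all 6 amplicons fell. ES-specific_LMR33 (chr3:9601299-9601698) had the largest difference of all amplicons, with levels of 52.0%, 54.3% and 26.9% at day 8 and 8.40%, 12.4% and 17.4% at day 29. Replicate 3 of day 8 stood far below the other two but above all samples of day 29. The log2 odds ratio was -2.34 ± 0.81 (SE), with an adjusted p of 0.0345. The call was lost when any sample other than replicate 3 of day 8 was left out, with log2 odds ratios between -2.66 and -2.00. Of the 10 CpGs in the sequence shown above 6 fell, and the differences of all 10 lay between -37.7 and -25.9 points.

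ES-specific_LMR28 (chr16:43609587-43609986) overlaps a coding exon of Zbtb20, which encodes a transcriptional repressor, and is highly methylated despite its label. It had 92.9%, 94.0% and 91.7% at day 8 and 80.8%, 85.7% and 85.3% at day 29, without overlap. This was the smallest difference among ES-specific LMRs (-8.97 points), yet on the log2 odds scale the amplicon fell by 1.35 ± 0.20 (SE, adjusted p = 0.0016), and 12 of its 13 CpGs fell.

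**Figure D2:**
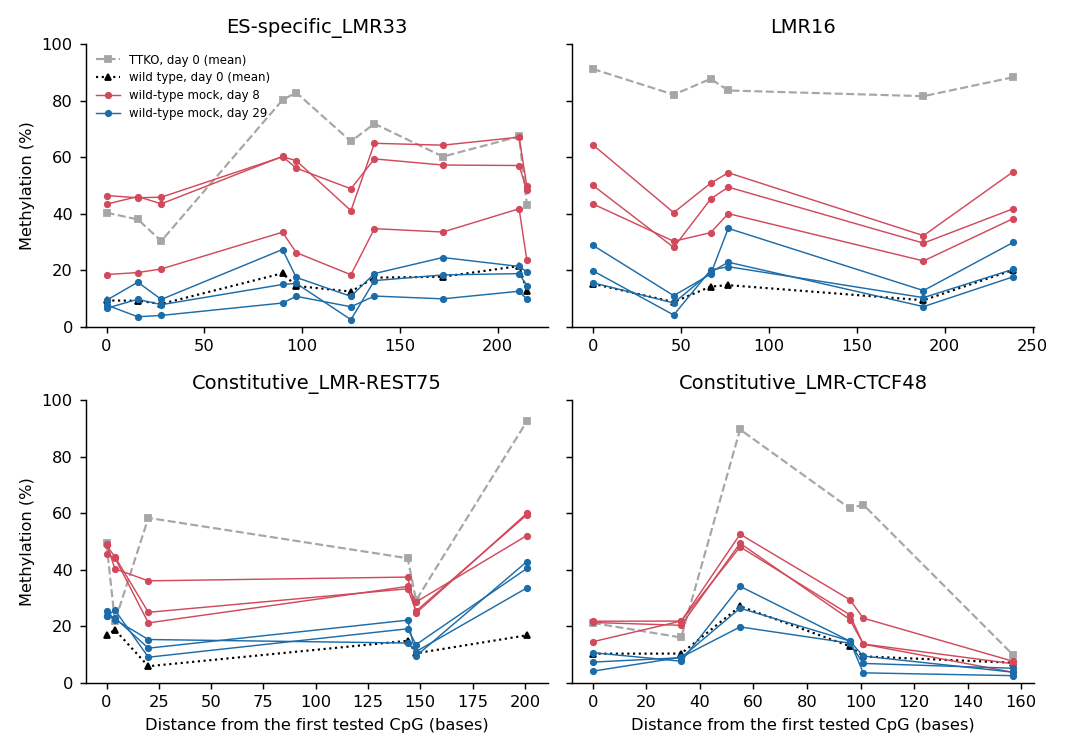
Methylation in percent of each tested CpG against its distance in bases from the first tested CpG in 4 amplicons, with a line per replicate of wild-type mock cells at day 8 (red) and day 29 (blue) and the means of non-transduced wild-type (dotted) and TTKO cells (dashed) at day 0. In ES-specific_LMR33 the lowest line of day 8 is replicate 3, and the lines of day 29 run near the wild-type means of day 0.

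Constitutive LMRs without a CTCF or REST label were at 39.2%, 41.5% and 38.7% at day 8 and at 22.9%, 24.3% and 23.2% at day 29 over 59 CpGs, a difference of -16.3 points. Here 50 CpGs fell (84.7%), none rose, and all 13 amplicons fell. These 13 are not separate loci. LMR24 and LMR35 come from the same listed region (chr3:65259384-65259674), and LMR38 (chr3:65259894-65260137) lies close to it. The listed regions of LMR46 and LMR59 on chromosome 12 overlap. LMR16 in Cradd (chr10:94717104-94717473) had the largest difference, from 40.6%, 49.5% and 34.7% to 15.1%, 22.6% and 15.9%. Its log2 odds ratio was -1.80 ± 0.36 (SE, adjusted p = 0.0047), and all 6 tested CpGs of the sequence above fell. LMR7 (chr13:28387413-28387725), an intergenic amplicon that is highly methylated, had the smallest difference of this type. It went from 84.9%, 88.6% and 88.7% to 79.7%, 82.2% and 81.0%, a log2 odds ratio of -0.78 ± 0.21 (SE, adjusted p = 0.015), which was not called without replicate 1 of day 29 (adjusted p = 0.0588).

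Constitutive LMRs labelled CTCF and REST had lower starting levels and smaller differences. The 23 CTCF CpGs were at 27.3% ± 2.86 at day 8 and 17.9% ± 1.11 at day 29 (SD, n = 3), with 11 lower and none higher, and 4 of 5 amplicons fell. Constitutive_LMR-CTCF48 went from 22.3%, 26.0% and 21.0% to 9.82%, 10.6% and 13.4%, a log2 odds ratio of -1.21 ± 0.17 (SE, adjusted p = 0.00128). Constitutive_LMR-CTCF50 (chr12:8066318-8066717) was not called, with 16.6% ± 2.85 and 11.6% ± 1.54 (adjusted p = 0.0517). It was called with a replicate block (adjusted p = 0.0408), with limma (0.0196), with the spread of all mock samples (0.0467) and without replicate 3 of day 8 (0.0497), and its log2 odds ratio was -0.73 to -0.41 when a sample was left out.

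The 98 REST CpGs were at 18.8% ± 1.17 at day 8 and 11.4% ± 0.537 at day 29, and 43 fell (43.9%) while 1 rose. Of 18 REST amplicons 14 fell and none rose. Constitutive_LMR-REST75 went from 39.4%, 41.3% and 37.6% to 20.3%, 21.9% and 22.2%, with a log2 odds ratio of -1.26 ± 0.10 (SE, adjusted p = 0.000295). All 6 tested CpGs of its sequence fell. At the other end, Constitutive_LMR-REST76 (chr7:145275734-145276055) was at 3.34%, 4.75% and 4.83% at day 8 and at 4.34%, 4.64% and 4.39% at day 29. Its levels overlapped and its log2 odds ratio of 0.10 ± 0.18 (SE) was not called (adjusted p = 0.588).

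**Figure D3:**
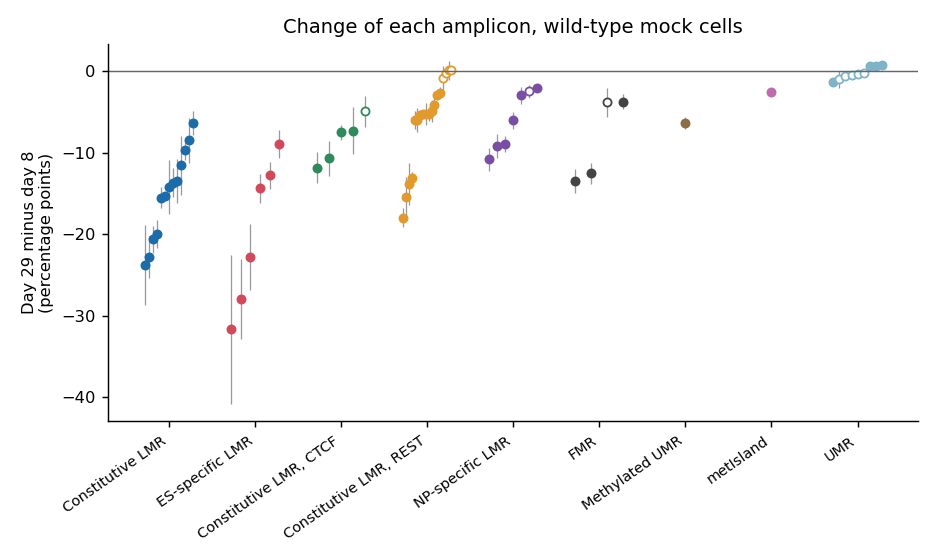
Difference in mean methylation, day 29 minus day 8, in percentage points for each of 64 amplicons, sorted within region type (bars are standard errors from the replicates, filled points passed the amplicon test, open points did not). ES-specific and constitutive LMRs reach the largest declines, and the UMRs lie close to 0.

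Region types with high methylation declined too. NP-specific LMRs, highly methylated in these stem cells, were at 91.5% ± 0.839 at day 8 and 86.3% ± 0.521 at day 29 over 39 CpGs, and 16 CpGs (41.0%) and 6 of 7 amplicons fell. The largest difference was at NP-specific_LMR45 (chr9:47313843-47314242), which is 24059 bases from Cadm1, a cell adhesion gene. It went from 83.0%, 85.1% and 80.7% to 72.7%, 72.8% and 70.9%, with a log2 odds ratio of -0.85 ± 0.28 (SE, adjusted p = 0.0299). This call rests on a median of 572 reads at day 8 and was lost when any sample but replicate 2 of day 8 was left out (log2 odds ratios -0.99 to -0.81) and with the spread of all mock samples (adjusted p = 0.0644). NP-specific_LMR37 (chr13:73207709-73208108) had the smallest difference, from 92.6% ± 0.223 to 90.5% ± 0.751, and its log2 odds ratio of -0.43 ± 0.09 (SE) was called with an adjusted p of 0.00647.

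Of 15 FMR CpGs 9 fell and of 4 FMR amplicons 3 fell, with means of 84.2% ± 1.11 and 75.5% ± 1.36. FMR4 in Atp2b2 went from 81.3%, 83.9% and 81.5% to 67.1%, 71.2% and 67.9%, and all 4 CpGs in its sequence fell. Its log2 odds ratio was -1.10 ± 0.13 (SE, adjusted p = 0.000851). FMR8, in an intron of Traf3, a signaling adaptor gene, went from 90.6% ± 1.35 to 86.9% ± 0.796 and fell on the log2 odds scale by 0.53 ± 0.12 (SE, adjusted p = 0.0071).

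The single amplicons of the last labels fell as well. Methylated_UMR22 (chr6:125236379-125236779) lies 436 bases from Tuba3a, an alpha-tubulin gene, and went from 91.5% ± 0.994 to 85.1% ± 0.676 (adjusted p = 0.000851). The amplicon metIsland21 (chrX:5659058-5659458) overlaps a coding exon of AU022751 and went from 96.5% ± 0.548 to 93.9% ± 0.390 (adjusted p = 0.00167).

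UMRs stayed close to 0 throughout. The mean over 82 CpGs was 2.79%, 3.01% and 2.68% at day 8 and 2.44%, 2.75% and 2.64% at day 29, so the replicates overlapped and the exact permutation test gave p = 0.2. Only 5 CpGs of UMRs fell (6.10%) and 4 rose. UMR11 had the largest decline, from 5.21%, 5.62% and 5.35% to 3.53%, 4.20% and 4.56%, and fell by 0.40 ± 0.10 on the log2 odds scale (SE, adjusted p = 0.0105), a call lost with the spread of all mock samples (adjusted p = 0.0674). Its 2 CpGs that fell are the second and the sixth in the sequence above, at 14.9% and 9.32% at day 8 and 7.80% and 4.23% at day 29, while the last 5 CpGs lay between 0.982% and 2.42% at both days.

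The 3 amplicons that rose were all UMRs with a tested CpG within 218 bases of an annotated start, and all rises were below 1 percentage point. UMR19 (chr6:13019489-13019889), at the start of Tmem106b, which encodes a lysosomal membrane protein, went from 1.57%, 1.27% and 1.35% to 2.03%, 1.87% and 2.17%. Its log2 odds ratio was 0.56 ± 0.15 (SE, adjusted p = 0.0149), and its level at day 0 had been 3.08% ± 0.09. UMR14 (chr17:34087896-34088296), in B3galt4, a galactosyltransferase gene, went from 2.07% ± 0.130 to 2.62% ± 0.261 (adjusted p = 0.021). UMR13 (chr3:88128879-88129279), at 0610031J06Rik, went from 1.38% ± 0.410 to 2.09% ± 0.219 with an adjusted p of 0.0499, a call that was lost with a replicate block and when any sample but replicate 1 of day 8 was left out (log2 odds ratios 0.42 to 0.65). At levels this low, incomplete bisulfite conversion would count as methylation, and its part in these values was not tested.

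Among single CpGs, the largest decline was at chr3:9601631 in ES-specific_LMR33, with 57.0%, 67.0% and 41.7% at day 8 and 12.5%, 18.8% and 21.3% at day 29. The difference was -37.7 points and the adjusted p 0.0104. In the same amplicon chr3:9601557 went from 53.0% ± 16.1 to 15.3% ± 4.07 (adjusted p = 0.0226), a call lost when any single replicate of day 29 was left out (adjusted p 0.0593 to 0.0728). The intergenic CpG chr4:153053412 in Constitutive_LMR-REST56 was more uniform, with 63.5%, 62.7% and 58.4% against 25.9%, 31.6% and 30.7%, a difference of -32.1 points (adjusted p = 0.000471). The lowest value of day 8 stood far above the highest of day 29.

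The other CpGs with large declines came from LMR16, LMR40, LMR24, ES-specific_LMR32 and ES-specific_LMR30. In LMR16, chr10:94717142 went from 52.6% ± 10.7 to 21.4% ± 6.77, and was not called without replicate 1 of day 29 (adjusted p = 0.056). In LMR40, an intergenic amplicon on chromosome 11, chr11:94734641 went from 48.8% ± 1.77 to 18.2% ± 2.88 and chr11:94734384 from 58.3% ± 3.99 to 28.3% ± 4.84. ES-specific_LMR32 lies in an intron of Cacng7, which encodes an auxiliary subunit of neuronal channels. There, chr7:3350096 went from 45.1% ± 6.25 to 14.6% ± 5.27 and chr7:3350189 from 42.8% ± 5.31 to 13.2% ± 7.52. The intergenic CpG chr3:65259468 in LMR24 went from 62.9% ± 1.99 to 34.0% ± 4.21, and chr5:147971090 in ES-specific_LMR30 from 43.3% ± 6.08 to 17.3% ± 8.60, which was not called without replicate 2 of day 29 (adjusted p = 0.0912).

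CpGs that rose did so by little. In an intron of Celf4, which encodes an RNA-binding protein, chr18:25826977 in Constitutive_LMR-REST88 had 5.72%, 4.20% and 7.31% at day 8 and 9.67%, 6.45% and 11.98% at day 29, with overlapping replicates and an adjusted p of 0.0472. In UMR19, chr6:13019616 went from 1.32% ± 0.334 to 3.54% ± 0.766 (adjusted p = 0.0353). In UMR14, chr17:34088172 went from 1.94% ± 0.226 to 3.44% ± 0.320 (adjusted p = 0.012) and chr17:34088210 from 1.66% ± 0.446 to 3.03% ± 0.593 (adjusted p = 0.0411). Except for chr17:34088172, these calls were lost in at least 4 of the 6 fits that left out a sample. Among CpGs between 20% and 80% at day 8, chr4:139815203 in Constitutive_LMR-REST65 differed least, with 25.3%, 26.2% and 22.7% against 28.5%, 14.4% and 19.3% (adjusted p = 0.189). Its replicates of day 29 were spread on both sides of those of day 8 and rest on 291, 1175 and 1474 reads.

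**Figure D4:**
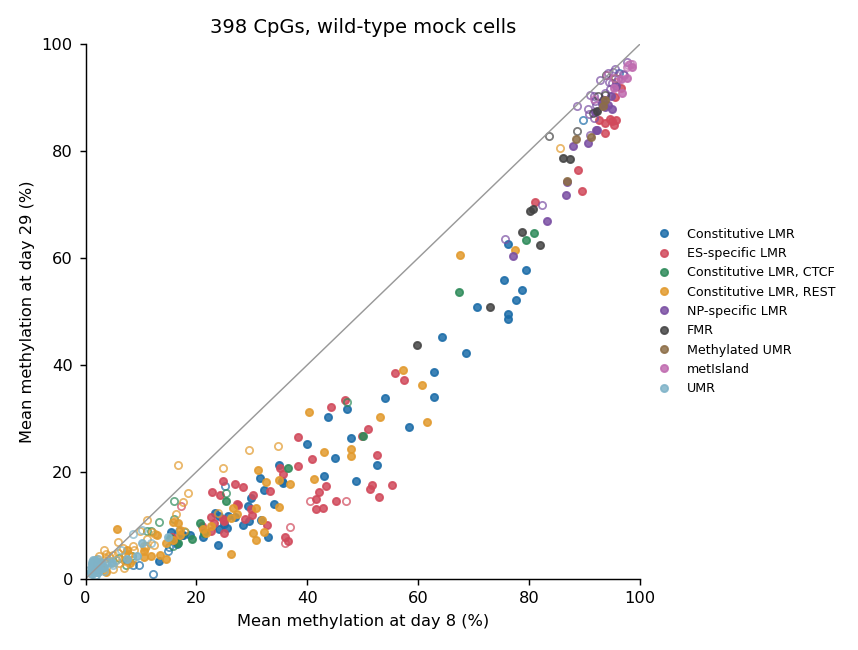
Mean methylation at day 29 against day 8, both in percent, for 398 CpGs colored by region type (filled points passed the CpG test, open points did not, and the line marks equal levels). Most CpGs between 20% and 90% at day 8 lie below the line.

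The level of a CpG in non-transduced cells, which the comparison does not use, went along with the size of the difference. CpGs at 30 to 50% at day 0 had the largest mean difference, -19.0 points, and all 19 of them fell. Those at 10 to 30% differed by -16.9 points on average and 77 of 94 fell. Differences were smaller toward both ends, with -4.62 points below 10% (56 of 194 lower, 5 higher) and -2.14 points at 90% or more (4 of 21 lower). Since a level cannot move far near 0 or 100%, the median log2 odds ratios were also compared, and they were -0.59 for the lowest range, -1.37 for the next, -1.21 for CpGs at 30 to 50% and -0.76 for the highest range.

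By annotation, beside 50.8% of all CpGs, in introns 56 of 111 CpGs fell (50.5%), in intergenic sequence 99 of 209 (47.4%) and in coding exons 47 of 67 (70.1%). The coding-exon CpGs came from few amplicons, and ES-specific_LMR27, ES-specific_LMR28 and ES-specific_LMR34 held 18, 12 and 11 of the 47 that fell, so annotation and region type cannot be told apart here. Of the 9 CpGs in UTRs, all in UMRs, none fell and 1 rose. Over 398 CpGs, the number of CpGs within 100 bases correlated weakly with the difference, with r = 0.105. Neighboring CpGs share reads and base composition, so this value is only a description.

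Levels at day 29 were also set beside those of non-transduced cells. Between day 0 and day 8, 253 of 405 CpGs rose (62.5%) and 9 fell (2.22%), and of 65 amplicons 55 were called (84.6%), 52 higher and 3 lower (4.62%). Between day 0 and day 29, 24 of 64 amplicons were called (37.5%), 19 higher (29.7%) and 5 lower (7.81%). Without replicate 1 of day 0, 12 were higher and 2 lower. These comparisons share samples with that of day 8 and day 29. Non-transduced cells were also grown on feeders and not exposed to the transduction, and these differences cannot be told apart from the time point.

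At day 29, 6 of 7 NP-specific amplicons were higher than at day 0, for example NP-specific_LMR41 with 87.1% against 79.3% (adjusted p = 0.000535). FMR4 stood at 68.7% ± 2.21 against 55.8% ± 2.72 (adjusted p = 0.00574), and 2 of 4 FMR amplicons were higher. No ES-specific and no CTCF amplicon was called between day 0 and day 29, and ES-specific_LMR33 was at 12.7% ± 4.51 against 14.1% ± 3.55. Among constitutive LMRs, 5 amplicons were higher at day 29 and 2 lower. Of single CpGs, 22 of 398 were higher at day 29 (5.53%) and none lower (0.0%), against 72 and 24 at an unadjusted p below 0.05 in the quasi-binomial model. This count fell to between 0 and 10 when any of the 6 samples was left out and to 0 with limma on logit levels, which had 92 at an unadjusted p below 0.05.

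A capture assay of non-transduced wild-type cells, whose replicates the authors had joined, covered 259 of the CpGs with a median of 305 reads. Its mean level of 12.9% was closer to the amplicon mean of day 29 (17.3%) than to that of day 8 (26.1%), and amplicons of non-transduced cells gave 16.2%.

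Mock-treated TTKO cells were followed over the same days to compare the decline in the absence of TET proteins. Over 376 CpGs, their level before transduction was 40.6% ± 0.452 and that of day 8 was 41.4% ± 1.15. Wild-type cells were at 26.2% and 36.7%, over the larger set of 398 CpGs. The early difference was not tested between the lines. The early and the later difference cannot be told apart in this comparison. Over the 376 CpGs with a level in all samples, TTKO cells were at 40.8%, 40.7% and 42.7% at day 8 and at 39.3%, 38.7% and 40.1% at day 29. The groups did not overlap (exact permutation test, two-sided, p = 0.1, the smallest possible), and neither did those of ES-specific LMRs (-5.91 points), Methylated_UMR22 (-3.20), FMRs (-1.38) and NP-specific LMRs (-1.20), each with the same p. The difference over all these CpGs was -2.00 points, against -8.33 points in wild-type cells. No CpG of 383 was called in TTKO cells with the quasi-binomial model or with limma (0.0%, with 57 and 39 at an unadjusted p below 0.05). Of 61 TTKO amplicons 2 fell (3.28%), and none was called with limma (13 at an unadjusted p below 0.05). These were ES-specific_LMR32, from 48.4% to 35.1% (adjusted p = 0.0278), and ES-specific_LMR27, from 24.8% to 16.7% (adjusted p = 0.0189).

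The difference between the lines was tested as an interaction. It was called in 24 of 60 amplicons (40.0%). In 22 (36.7%) the log2 odds ratio was more negative in wild-type cells, and in 2 (3.33%) more positive. The former were 6 of 10 constitutive LMRs, 8 of 18 REST amplicons, 3 of 6 ES-specific LMRs, 2 of 4 FMRs, 2 of 9 UMRs and 1 of 4 CTCF amplicons, and no NP-specific amplicon of 7. In Constitutive_LMR-REST75, TTKO cells had 55.2% on day 8 and 52.2% on day 29, and the interaction was -1.11 ± 0.15 (SE, adjusted p = 0.00122). In LMR24 they went from 74.3% to 72.0% (interaction -1.20 ± 0.19, adjusted p = 0.00124) and in FMR4 from 84.3% to 84.6% (interaction -1.31 ± 0.27, adjusted p = 0.00589). The amplicons that were more positive in wild-type cells were Constitutive_LMR-REST86 and UMR19, with wild-type levels of 3.13% or less at both days.

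For single CpGs the interaction called 30 of 376 (7.98%), 29 as more negative (7.71%) and 1 as more positive (0.266%). This count was 3 with limma on logit levels and 7 with a replicate block. It ran from 4 to 51 when single samples were left out, and that of amplicons from 17 to 27. Across 64 amplicons, the excess of TTKO over wild-type methylation at day 0 correlated with the difference between day 29 and day 8, with r = -0.737 (Spearman rho = -0.793). This is a description across amplicons, whose levels limit both quantities, and it carries no p. Of 229 CpGs at which TTKO cells exceeded wild-type cells by 5 points or more at day 0, 149 lay between both levels in wild-type cells of day 8, 75 above the TTKO level and 5 at or below the wild-type level. At day 29, 11 lay above the TTKO level.

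**Figure D5:**
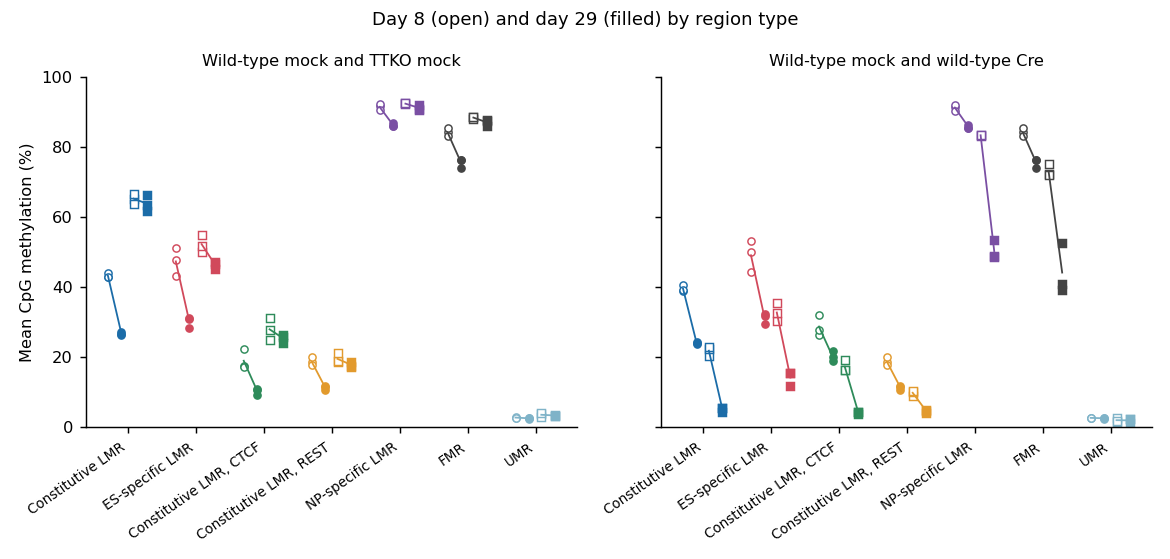
Mean CpG methylation in percent by region type at day 8 (open) and day 29 (filled), with 3 replicates per group and lines joining the means, for wild-type mock cells (circles) beside TTKO mock cells (squares, left) or wild-type Cre cells (squares, right). TTKO cells differ less between the days than wild-type cells over the means of all CpGs (-2.00 against -8.33 points), and Cre cells start lower at day 8 and reach lower levels at day 29.

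Cre recombines the floxed alleles of Dnmt3a and Dnmt3b. Per the study, excision left a minority of alleles intact, and neither protein was detectable by western blot after Cre. Cre-treated wild-type cells were followed over the same days. Over 345 CpGs they went from 28.8% ± 0.799 to 15.6% ± 0.177, a difference of -13.3 points against -8.81 in mock cells. The interaction was positive, meaning a larger fall of the odds with Cre, in 22 of 58 amplicons (37.9%) and negative in 1 (1.72%), 39.7% in all. For CpGs it was positive at 65 of 345 (18.8%) and negative at 3 (0.87%), 19.7% in all. The 68 CpGs became 40 without replicate 1 of Cre day 29 and 45 without replicate 1 of mock day 8. All 6 NP-specific amplicons fell more with Cre, from 83.4% ± 0.178 to 50.4% ± 2.69 over 35 CpGs, while mock cells went from 91.3% ± 0.775 to 85.8% ± 0.574. ES-specific LMRs differed by -18.6 points with Cre and by -17.9 points in mock cells over 53 CpGs, and 1 of 5 amplicons passed the test. REST LMRs differed by fewer points with Cre (-5.23, from 9.90% ± 0.723 to 4.68% ± 0.403) than in mock cells (-7.42) over 98 CpGs, and 4 of 18 amplicons had a larger fall of the odds with Cre. Between types this contrast was not tested.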

How the data were processed

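Wild-type and TTKO samples with amplicon bisulfite sequencing were grouped by their labels. Reads were trimmed by the authors, who used Rbowtie (QuasR) for alignment on mm9 and deposited, per CpG and sample, the coverage as counts of reads and the methylation level as a fraction (0 to 1), with no level under 100 reads. For captured DNA the authors deposited levels as percent with counts of reads, replicates joined. Coverage times level gave whole methylated reads (within 0.001) at 100% of values, and all 405 positions are CpGs in NCBIM37. Total reads on CpGs were between 3485191 and 4231098 in the 6 samples. PCR reads carry no molecular identifiers, so precision was taken from replicates.

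Methylated and unmethylated reads, with 0.5 added to each, were fitted per CpG and per amplicon (reads summed) by logistic regression with quasi-binomial errors (R 4.3.3), with dispersions moderated by limma 3.58.1 and not below 1, two-sided, with Benjamini-Hochberg adjustment over all features of a comparison. Fits used only the groups compared. Means over CpGs were unweighted and compared by exact permutation, adjusted over region types in wild-type mock cells only. Summaries used python 3.11.15, numpy 2.4.6, scipy 1.17.1, pandas 2.3.3, matplotlib 3.10.9 and pysam 0.24.0. Genes are from GENCODE M1, and distances are from the nearest tested CpG to protein-coding genes.

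Named items were, per region type, the amplicons with the most negative and most positive difference (at least 2 CpGs), the 10 CpGs with the largest falls and up to 5 with the largest rises (at most 2 per amplicon), and the CpG between 20% and 80% that differed least. Others were chosen after their values were seen. The members and lists were chosen with earlier results of these data known. The study describes its replicates as biological, and p-values measure the spread between them.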

Additional observations from a re-analysis of the deposited data

Results flagged for a closer look

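The change from day 8 to day 29 differed between groups of cells by an interaction term of the quasi-binomial model. Between wild-type and TTKO mock cells it differed at 30 CpGs and 24 amplicons, and between Cre and mock wild-type cells at 68 CpGs and 23 amplicons. The first count of CpGs was 3 with limma, 7 with a replicate block and 4 to 51 when a sample was left out, and that with Cre was 40 to 74 when a sample was left out. Groups of 3 samples were not searched for outlying samples.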

How the results depend on the processing

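The count of 207 CpGs changed between day 8 and day 29 was 121 (120 lower, 1 higher) when the spread came from all wild-type mock samples, and 144 to 187 when a sample was left out. The number of changed amplicons, 52, was 42 to 53 when a sample was left out. The mean difference ran from -9.31 to -7.86 points when a sample was left out, and the difference of the medians over CpGs was -14.3 points, while the median of the differences was -5.58. Constitutive LMRs exceeded ES-specific LMRs without replicate 2 of day 8 (-15.5 against -15.3 points). Constitutive_LMR-REST76, not called, had log2 odds ratios of -0.12 (without replicate 1 of day 8) to 0.22 (without replicate 2 of day 8).

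The study continued its cultures to day 29 and fitted each biological replicate across the days, so samples with the same number may come from the same culture. The main tests did not use this pairing. Same-numbered replicates of day 8 and day 29 deviated from their group means with correlations of -0.10, 0.02 and -0.30, and no sample correlated best with its own number. With so few replicates these correlations cannot decide whether the numbers are pairs. With a replicate block 187 CpGs were called between day 8 and day 29. Between day 0 and day 29 the count of 22 CpGs was 6 with the block and 0 with limma on logit levels, and 0 to 10 when any sample was left out. The 24 amplicons of that comparison were 14 without replicate 1 of day 0.

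The interaction of lines called 30 CpGs, 7 with the block and 3 with limma, and 4 to 51 when a sample was left out. It dropped to 15 or fewer without replicate 1 or 2 of day 8 or any replicate of day 29 in wild-type cells, or any replicate of day 29 in TTKO cells, and reached 51 without replicate 3 of day 8 in TTKO cells. Summed per amplicon it called 17 to 27. The amplicon as a unit was chosen after seeing the data for this interaction, for that with Cre and for the comparisons with day 0. The interaction with Cre called 40 to 74 CpGs, with 40 without replicate 1 of Cre day 29 and 45 without replicate 1 of mock day 8. The causes were not tested. Of 407 recomputed log2 odds ratios of named items, 355 kept their direction and call, 47 lost the call, 4 gained it and 1 turned.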
